A study of Mus musculus with 24 samples.

Results

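Antioxidant defense genes of epididymal white adipose tissue (eWAT, labelled gonadal WAT) were followed in fl/fl mice and in mice without adipocyte laminin α4, on chow and on a high-fat diet (HFD). The 9 genes are Nqo1, Hmox1, Gclc, Gclm, Gsta4, Txnrd1, Gpx3, Sod3 and Cat, taken by symbol from the 16730 genes of the deposited tables. They were chosen for what their products do and not for a measured value. All 9 were in the tables and all 9 passed the filter on low counts.

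RNA was sequenced from the 3′ end of transcripts (Lexogen QuantSeq), 1 library per mouse, in 24 male mice on a C57BL/6J background, with 6 mice in each of 4 groups. Lama4 fl/fl mice (labelled wild type, floxed) and Lama4 AKO mice each made up a chow-fed and an HFD-fed group. By the paper's methods, mice spent 20 weeks on chow (LabDiet) or on a diet with 45% fat, and were 24 to 26 weeks old. Its figure legends give chow feeding from weaning to 24 weeks and HFD feeding from 6 to 26 weeks of age. By these, age and time on diet went with the diet group. Their part in any HFD against chow value cannot be told apart from that of the diet. Every mouse carried the floxed Lama4 alleles, with loxP sites around exon 3, and AKO mice also carried a Cre driven by the adiponectin promoter, so that only adipocytes of the depot were targeted and the other cells kept the gene.

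Cells meet oxidants with enzymes that remove them and with enzymes that detoxify what they leave behind. The transcription factor NRF2, held in check by KEAP1, turns on many of the latter when oxidants or electrophiles build up, by binding the antioxidant response element. Its textbook targets include the quinone reductase Nqo1, the heme-degrading Hmox1, the glutathione synthesis subunits Gclc and Gclm and the thioredoxin reductase Txnrd1. Sod3 and Gpx3 encode secreted enzymes, Cat a peroxisomal one, and Gsta4 encodes a transferase that couples lipid aldehydes such as hydroxynonenal to glutathione. In obese adipose tissue, macrophages are a further source of both oxidants and Hmox1.

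The promoters of Gclm and Txnrd1 are shown because their transcripts varied together more closely than any other pair of the 9 genes. They are the 250 bases before a transcription start, from RefSeq on GRCm38.p6, both on the plus strand and written 5′ to 3′, with a match to the core of the antioxidant response element (TGACNNNGC, sought on both strands) in capitals. The Gclm stretch is chr3:122245307-122245556 and the Txnrd1 stretch, before the middle of 3 listed starts, is chr10:82858956-82859205. Of the 3 Txnrd1 stretches, only the one shown held a match.
Gclm: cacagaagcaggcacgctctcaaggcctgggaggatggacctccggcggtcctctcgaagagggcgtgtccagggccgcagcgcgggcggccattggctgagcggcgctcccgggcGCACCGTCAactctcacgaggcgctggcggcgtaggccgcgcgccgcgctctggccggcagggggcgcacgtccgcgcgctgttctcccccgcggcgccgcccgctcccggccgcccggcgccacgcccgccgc
Txnrd1: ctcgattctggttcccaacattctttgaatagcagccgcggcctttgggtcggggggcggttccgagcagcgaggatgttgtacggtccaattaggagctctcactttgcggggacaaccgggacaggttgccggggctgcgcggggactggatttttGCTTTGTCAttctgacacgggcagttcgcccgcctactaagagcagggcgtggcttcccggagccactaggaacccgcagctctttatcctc
Both matches read on the opposite strand, GCACCGTCA at 134 to 126 bases before the Gclm start and GCTTTGTCA at 92 to 84 bases before the Txnrd1 start. The table of promoters held 7 windows for 5 of the 9 genes (Cat, Gclm, Nqo1, Txnrd1 and Gpx3), and these were the only 2 with a match. Of all 32851 windows of this length, 10.2% held one, and a match is a description of letters, not of a bound site.

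Library totals lay between 5579590 and 18764516 counts, and the lowest count of a member in any library was 16 for Gsta4 and 23 for Nqo1. Some libraries stood apart. On the first principal component, with 45.8% of the variance, HFD-fed fl/fl mice 1, 2 and 5 lay at 73.5, 48.3 and 48.2, and mice 3, 4 and 6 of the same group at -9.88, -76.1 and -60.4. Chow-fed fl/fl mouse 3 lay at 46.8 and chow-fed AKO mouse 5 at 22.1. An earlier inference took these 5 (HFD-fed fl/fl 3, 4 and 6, chow-fed fl/fl 3 and chow-fed AKO 5) for the mice the study set aside, and fits on the other 19 mice are given beside those on all 24; since the 5 were set aside on expression, the 19-mouse p-values are not independent of that choice. Transcripts of epididymis (Gpx5, Lcn5 and Adam7 among 4 measured of 7 listed) summed to 33.5 CPM (counts scaled to a common library total) in chow-fed AKO mouse 5 and to 22.9 CPM in chow-fed fl/fl mouse 4, with 1.19 CPM in the next highest library. Lama4 itself was counted in every library (376 to 2147 counts) and its level did not pass the test between genotypes on chow (log2 fold change 0.11 ± 0.34 (SE), adjusted p = 0.980, edgeR) or on HFD (-0.69 ± 0.35, adjusted p = 0.347), while HFD against chow in AKO mice gave -1.05 ± 0.35 (adjusted p = 0.0364). Tags at the 3′ end lie outside the deleted exon 3, so these values do not check the labels. The paper checked the deletion by quantitative PCR and reports a partial knockdown of Lama4 in eWAT of chow-fed AKO mice. Gm28586, a predicted gene known from earlier results of these data to follow the genotype labels, had 6 to 50 counts in all 12 libraries labelled AKO and 0 in all 6 chow-fed and 5 of 6 HFD-fed libraries labelled fl/fl, with 33 counts in HFD-fed fl/fl mouse 2. That library thus goes against its label for this gene. Without it, 0 members were called in any comparison over the rest of the 24 mice, and for genotype on HFD Nqo1 stood at 1.17 on the log2 scale (adjusted p = 0.120), Txnrd1 at 0.81 (adjusted p = 0.153) and Gsta4 at -1.03 (adjusted p = 0.214, edgeR). In the same fit Gsta4 changed sign to 0.03 for HFD in fl/fl mice, and Hmox1 for HFD in fl/fl mice was 1.02 over the rest of the 24 and 2.56 (adjusted p = 0.00588, edgeR) over the rest of the 19. The fat depot was recognizable in every library, with Adipoq at 5506 counts or more and Plin1 at 2688 or more.

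By edgeR, no member reached the study's threshold (fold change of at least 1.5, nominal p of at most 0.001, at least 2 CPM in the higher group) in any comparison over 24 mice. For HFD against chow in fl/fl mice, edgeR called 0 of 9 members where 0.173% of the 15020 genes tested were called, and 0 members had an unadjusted p under 0.05, against 9.01% of all genes. In AKO mice the same contrast called 0 of 9, with 4.12% of all genes called, while Nqo1, Hmox1 and Sod3 had an unadjusted p under 0.05, a limit that 39.8% of all genes met. AKO against fl/fl on HFD called 0 of 9 with 0.173% of genes called, and Nqo1 alone was under 0.05 where 14.8% of genes were. On chow, AKO against fl/fl called 0 of 9 with 0.113% of genes called, and 0 members were under 0.05 where 5.85% of genes were. The interaction of diet and genotype called 0 of 9 with 0.386% of genes called, with Nqo1 alone under 0.05 beside 15.6% of genes. HFD against chow averaged over genotypes called 0 of 9 with 2.25% of genes called, with Hmox1 and Sod3 under 0.05 beside 35.5% of genes. Both limma-voom and DESeq2 also called 0 members in each of these comparisons. They called 0.173% (limma-voom) and 0.399% (DESeq2) of all genes for HFD in fl/fl, 4.02% and 8.75% for HFD in AKO, 0.2% and 0.539% for genotype on HFD, 0.126% and 0.273% for genotype on chow, 0.36% and 0.985% for the interaction, and 2.11% and 4.21% for diet averaged over genotypes. With sample quality weights, limma-voom called 1 member, Sod3, for HFD in AKO mice, where that fit called 23.9% of all genes. It called 0 members in the other comparisons, with 0.246% of genes called for HFD in fl/fl, 3.5% for genotype on HFD, 1.92% for genotype on chow, 9.04% for the interaction and 6.11% for diet averaged over genotypes.

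**Figure D1:**
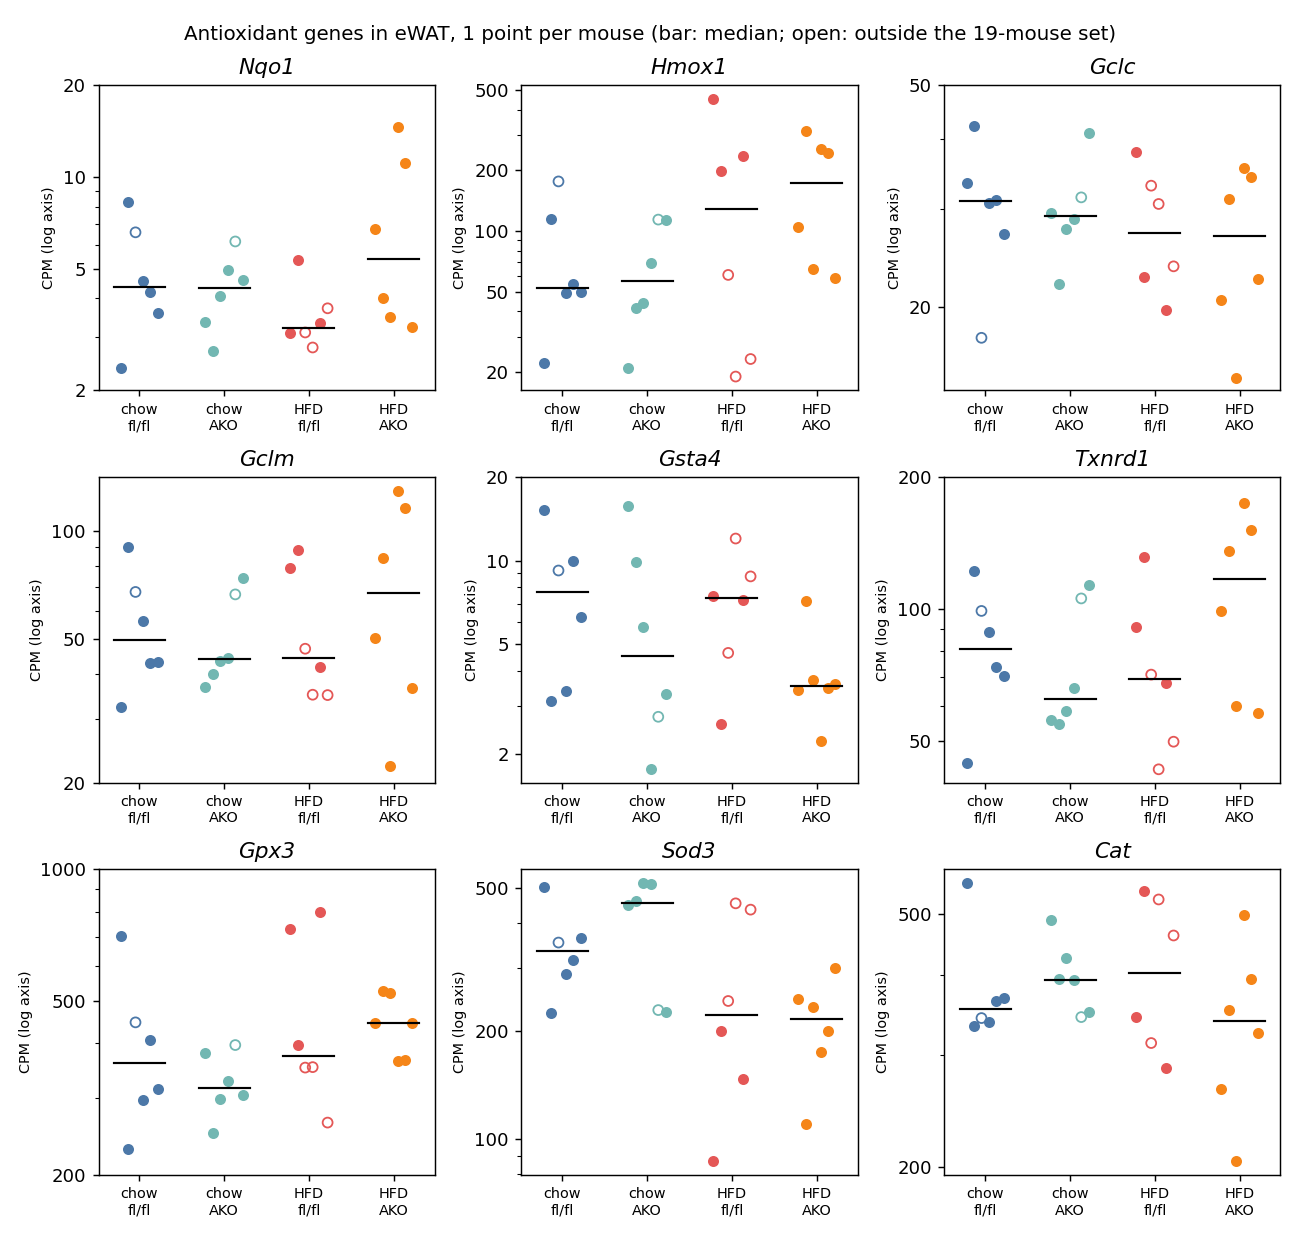
CPM on a log axis for each of the 9 genes, 1 point per mouse and 6 mice per group, with a bar at the group median and open points for the 5 mice outside the 19-mouse set. The groups overlap in every panel, and Hmox1 spreads from 19.04 to 452 CPM among HFD-fed fl/fl mice.

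The groups of each of the 4 two-group comparisons overlapped for all 9 genes. Groups without overlap were seen for 0.213% of all genes (HFD in fl/fl), 6.86% (HFD in AKO), 0.533% (genotype on HFD) and 0.26% (genotype on chow). When each gene's groups were ordered by mean log2 CPM, 0 of 27 gaps between neighbouring groups exceeded the larger of their SDs. Of the 36 differences in the 4 comparisons, 4 did, those of Hmox1 (1.29 against an SD of 1.07), Gpx3 (0.45 against 0.24) and Sod3 (0.90 against 0.57) for HFD in AKO mice and of Gsta4 for genotype on HFD (0.77 against 0.76). Members did not move one way as a set: in AKO mice on HFD 5 had a positive and 4 a negative fitted change (median 0.45 on the log2 scale, beside -0.0031 over all genes), and in fl/fl mice 3 were positive and 6 negative (median -0.12, beside -0.01).

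Nqo1, the quinone reductase that is the usual readout of NRF2 activity, lay at 2.37 to 8.28 CPM (median 4.38) in chow-fed fl/fl mice, at 2.69 to 6.15 CPM (median 4.33) in chow-fed AKO mice, at 2.76 to 5.34 CPM (median 3.21) in HFD-fed fl/fl mice and at 3.22 to 14.6 CPM (median 5.38) in HFD-fed AKO mice. The highest values were those of HFD-fed AKO mice 4 (14.6 CPM) and 5 (11.1 CPM), above every other mouse, while the remaining mice of that group overlapped all groups. On HFD the fitted AKO to fl/fl difference was 1.01 ± 0.35 (SE) on the log2 scale (95% interval 0.29 to 1.73, adjusted p = 0.291, edgeR), with a counterpart on chow of -0.21 (interval -0.92 to 0.51, adjusted p = 0.965). The interaction was 1.22 ± 0.49 (adjusted p = 0.272, edgeR), so neither passed after adjustment. Without HFD-fed AKO mouse 4 the difference on HFD was 0.65 (adjusted p = 0.539) and the interaction 0.85 (adjusted p = 0.444). At 23 to 163 counts per library it was among the thinly counted members.

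Hmox1, which breaks heme down to biliverdin, iron and carbon monoxide, was the most variable member on HFD. It lay at 22.3 to 176 CPM (median 52.3) in chow-fed fl/fl mice and 21.0 to 114 CPM (median 56.7) in chow-fed AKO mice, against 19.04 to 452 CPM (median 129) in HFD-fed fl/fl mice and 58.3 to 312 CPM (median 174) in HFD-fed AKO mice. The HFD-fed fl/fl group held both the highest and the lowest value of all 24 mice, a span of 23.8-fold. Its 6 mice read 452, 198, 60.7, 19.04, 235 and 23.3 CPM in order of number, beside summed adipocyte markers of 10793, 13920, 30520, 72762, 18017 and 58321 CPM. The mouse with the least adipocyte signal had the most Hmox1, and the mouse with the most adipocyte signal had the least. Over 24 mice HFD against chow gave 1.08 ± 0.65 on the log2 scale in fl/fl mice (interval -0.27 to 2.43, adjusted p = 0.639) and 1.36 ± 0.66 in AKO mice (interval 0.00 to 2.72, adjusted p = 0.125, edgeR), and the 2 effects differed by 0.28 (interval -1.61 to 2.18).

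Over the 19 mice, which keep HFD-fed fl/fl mice 1, 2 and 5, Hmox1 was called for HFD in fl/fl mice at 2.34 ± 0.58 on the log2 scale (adjusted p = 0.00604), in a fit that called 11.8% of the 14863 genes tested. On the same mice limma-voom gave 2.43 ± 0.64 (adjusted p = 0.00824), with a nominal p above the limit, and called 0 members beside 12.4% of all genes (0 beside 15.9% for HFD in AKO mice). The call remained in 13 of 19 fits without 1 further mouse. It was lost without chow-fed fl/fl mouse 1, 4, 5 or 6 or HFD-fed fl/fl mouse 1 or 5, and the change over those 19 fits ran from 1.89 to 2.74. In AKO mice, where 15.7% of all genes were called over the 19 mice, 0 members were, and Hmox1 stood at 1.57 ± 0.50 (adjusted p = 0.0189). Averaged over genotypes it was called at 1.96 ± 0.38, together with Sod3, among 21.4% of all genes, and limma-voom called the same 2 among 21.7%.

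Gclc and Gclm encode the catalytic and the modifier subunit of glutamate-cysteine ligase, the first step of glutathione synthesis. Gclc held 17.6 to 42.2 CPM (median 30.9) in chow-fed fl/fl mice, 22.005 to 41.0 CPM (median 29.1) in chow-fed AKO mice, 19.7 to 37.8 CPM (median 27.1) in HFD-fed fl/fl mice and 14.9 to 35.5 CPM (median 26.8) in HFD-fed AKO mice. Its fitted differences in the 4 comparisons of diet or genotype lay between -0.18 and -0.01 on the log2 scale, and the widest interval among them was -0.63 to 0.27, for HFD in AKO mice. Gclm held 32.5 to 90.3 CPM (median 49.6) in chow-fed fl/fl mice, 36.9 to 74.1 CPM (median 44.0) in chow-fed AKO mice, 35.0 to 88.6 CPM (median 44.5) in HFD-fed fl/fl mice and 22.2 to 129 CPM (median 67.3) in HFD-fed AKO mice. The last group spanned 5.81-fold and contained both the lowest and the highest Gclm value of the study. Its change with HFD in AKO mice was 0.52 (interval -0.21 to 1.25) and in fl/fl mice -0.03 (interval -0.76 to 0.70). The Gclm locus overlaps an antisense gene (Gm17494) and a pseudogene (Gm6061), so its counts could hold reads of these.

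Gsta4 held 3.13 to 15.3 CPM (median 7.73) in chow-fed fl/fl mice, 1.76 to 15.7 CPM (median 4.54) in chow-fed AKO mice, 2.58 to 12.01 CPM (median 7.34) in HFD-fed fl/fl mice and 2.23 to 7.14 CPM (median 3.52) in HFD-fed AKO mice. The AKO to fl/fl difference on HFD was -0.85 ± 0.48 on the log2 scale (interval -1.83 to 0.13, adjusted p = 0.386). The chow-fed AKO group alone ran through the whole range of the study. Gsta4 had 16 to 253 counts per library, with the lowest single count of the 9 genes, beside 23 to 163 for Nqo1. A difference of the size seen on HFD was not detectable beyond the spread between mice.

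Txnrd1, the cytosolic reductase that keeps thioredoxin reduced, held 44.4 to 122 CPM (median 81.2) in chow-fed fl/fl mice, 54.6 to 114 CPM (median 62.2) in chow-fed AKO mice, 43.1 to 131 CPM (median 69.4) in HFD-fed fl/fl mice and 57.9 to 174 CPM (median 117) in HFD-fed AKO mice. The HFD-fed AKO group had the highest median, with 2 of its 6 mice, 3 and 6, near its bottom at 60.1 and 57.9 CPM. HFD against chow gave 0.58 ± 0.31 on the log2 scale in AKO mice (interval -0.05 to 1.21, adjusted p = 0.158) and -0.13 in fl/fl mice (interval -0.77 to 0.50, adjusted p = 0.914). The locus overlaps Eid3 and the antisense genes Gm38560 and Gm47073.

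Gpx3 encodes the plasma glutathione peroxidase, which adipose tissue also secretes. It held 229 to 705 CPM (median 361) in chow-fed fl/fl mice, 249 to 396 CPM (median 316) in chow-fed AKO mice, 263 to 800 CPM (median 375) in HFD-fed fl/fl mice and 365 to 525 CPM (median 445) in HFD-fed AKO mice. Both fl/fl groups spread more widely than both AKO groups, 3.08-fold on chow and 3.04-fold on HFD against 1.59-fold and 1.44-fold, a difference in spread that was not tested. HFD against chow gave 0.45 ± 0.26 in AKO mice (adjusted p = 0.197) and 0.27 ± 0.26 in fl/fl mice (adjusted p = 0.772).

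Sod3, the extracellular superoxide dismutase bound to the matrix around vessels and cells, was the member nearest to a diet difference. It held 226 to 516 CPM (median 455) in chow-fed AKO mice and 110 to 300 CPM (median 216) in HFD-fed AKO mice, against 224 to 502 CPM (median 333) in chow-fed fl/fl mice and 87.0 to 453 CPM (median 221) in HFD-fed fl/fl mice. In AKO mice, 4 chow-fed mice lay at 449 CPM or more, above every HFD-fed mouse, and the other 2, at 229 and 226 CPM, lay among them. HFD against chow was -0.92 ± 0.33 on the log2 scale in AKO mice (interval -1.61 to -0.24, adjusted p = 0.0489, edgeR) and -0.39 ± 0.33 in fl/fl mice (adjusted p = 0.737), and the difference between these, -0.54, had an interval of -1.50 to 0.43. By a rule of fold 1.5, adjusted p of 0.05 and the same CPM limit, Sod3 was thus the 1 member lower in AKO mice on HFD, among 16.1% of all genes. In fits that left out 1 mouse the adjusted p ran from 0.0234 (without chow-fed AKO mouse 5) to 0.109 (without chow-fed AKO mouse 3) and stayed at 0.05 or less in 10 of 24. It was 0.0502 or more in the other 14, those without chow-fed fl/fl mice 2, 4, 5 or 6, chow-fed AKO mice 1, 2, 3 or 4, HFD-fed fl/fl mouse 3 or HFD-fed AKO mice 1, 2, 3, 4 or 5. Without both libraries with epididymis transcripts it was 0.0276. Over the 19 mice Sod3 was lower on HFD in fl/fl mice (-1.23 ± 0.34, adjusted p = 0.0122) and in AKO mice (-1.04 ± 0.27, adjusted p = 0.00580), by a rule that took in 22.9% and 27.7% of all genes.

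Cat encodes the peroxisomal catalase that splits hydrogen peroxide. Its groups lay at 333 to 558 CPM (median 354) in chow-fed fl/fl mice, 344 to 488 CPM (median 394) in chow-fed AKO mice, 286 to 544 CPM (median 403) in HFD-fed fl/fl mice and 205 to 497 CPM (median 339) in HFD-fed AKO mice. Its 4 differences lay between -0.28 and 0.10 on the log2 scale, with adjusted p of 0.387 to 0.984 (edgeR).

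**Figure D2:**
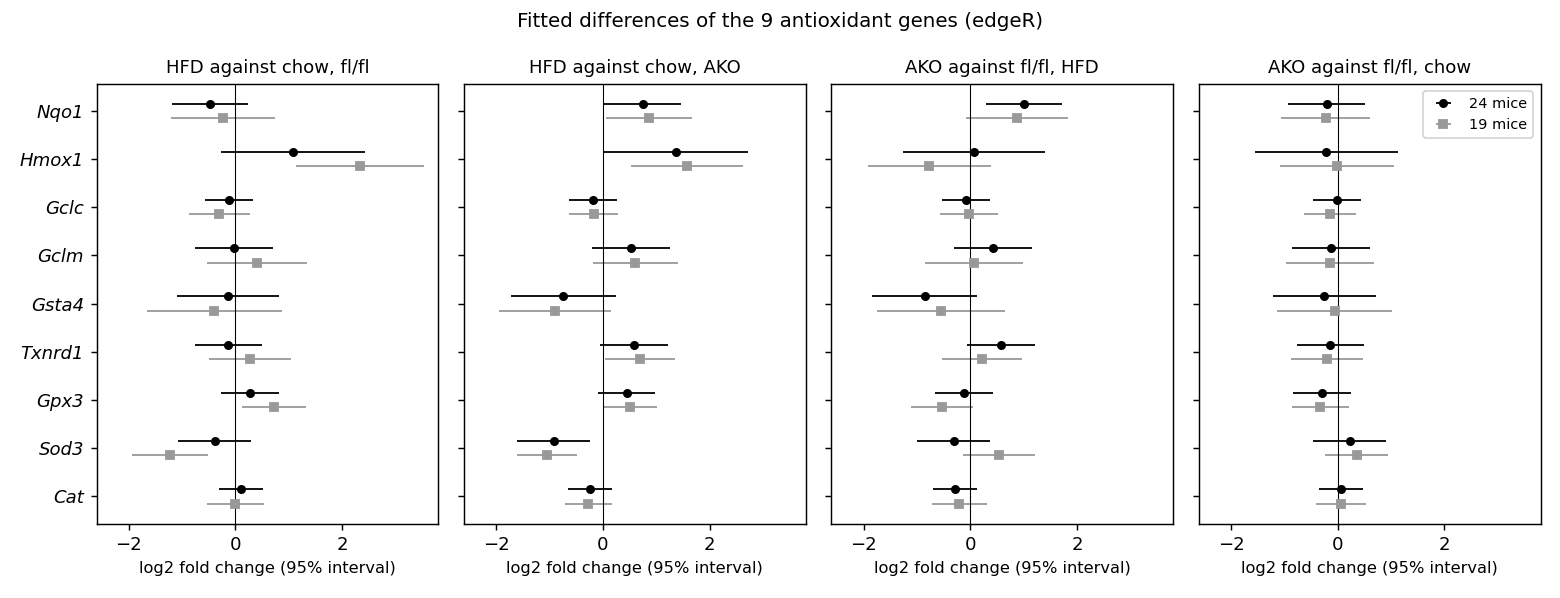
Fitted log2 fold change of each gene with its 95% interval (edgeR) in 4 comparisons, over 24 mice (black circles) and over 19 mice (grey squares). Over 24 mice the interval leaves out 0 for Nqo1, Hmox1 and Sod3 on HFD in AKO mice and for Nqo1 between genotypes on HFD, and the Hmox1 value for HFD in fl/fl mice moves from 1.08 to 2.34 between the sets of mice.

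Across mice of 1 group the genes moved in 2 directions. The following correlations are of log2 CPM over the 24 mice after each group's mean was subtracted. They are descriptions without a test, over points that share libraries, depth and tissue composition. Gclm and Txnrd1 were the closest pair (Pearson r = 0.94, Spearman rho = 0.96, and r = 0.95 without the 2 mice farthest from the median of Gclm). The relation was seen within each group of 6, at r = 0.96 in chow-fed fl/fl, 0.99 in chow-fed AKO, 0.95 in HFD-fed fl/fl and 0.96 in HFD-fed AKO mice. Txnrd1 was the gene most like Gclm, and Gclm the gene most like Txnrd1, among all genes tested. HFD-fed AKO mouse 3 had 22.2 CPM of Gclm and 60.1 CPM of Txnrd1, and mouse 4 of the same group had 129 and 174 CPM.

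Nqo1 went with this pair (r = 0.78 with Gclm and 0.79 with Txnrd1). Of all genes, 99.83% and 99.84% had a lower correlation with Nqo1 than these. Hmox1 went with the pair too (r = 0.77 and 0.83). Only 91.71% and 95.21% of all genes had a lower correlation with Hmox1, so many other genes were closer to it. Gclc, partner subunit of Gclm, was less close to it (r = 0.58) and differed between groups, from 0.03 in chow-fed fl/fl to 0.97 in HFD-fed AKO mice. Sod3 ran against Hmox1 (r = -0.86, rho = -0.85, and -0.79 without the 2 mice farthest from the median of Hmox1), most closely in HFD-fed fl/fl mice (r = -0.97), and against Txnrd1 (r = -0.72). Gsta4 ran against Nqo1 (r = -0.59) and Txnrd1 (r = -0.56). Negative values of this size were shared by many genes. Of all genes, 2.54% had a lower correlation with Hmox1 than Sod3 had, and 5.90% a lower one with Txnrd1. For Gsta4, 3.67% of genes had a lower correlation with Nqo1 than it had, and 8.64% a lower one with Gsta4 than Txnrd1 had. Cat had no such relation that kept its sign over the groups: with Txnrd1 it was at -0.91 in chow-fed fl/fl and 0.79 in HFD-fed AKO mice.

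**Figure D3:**
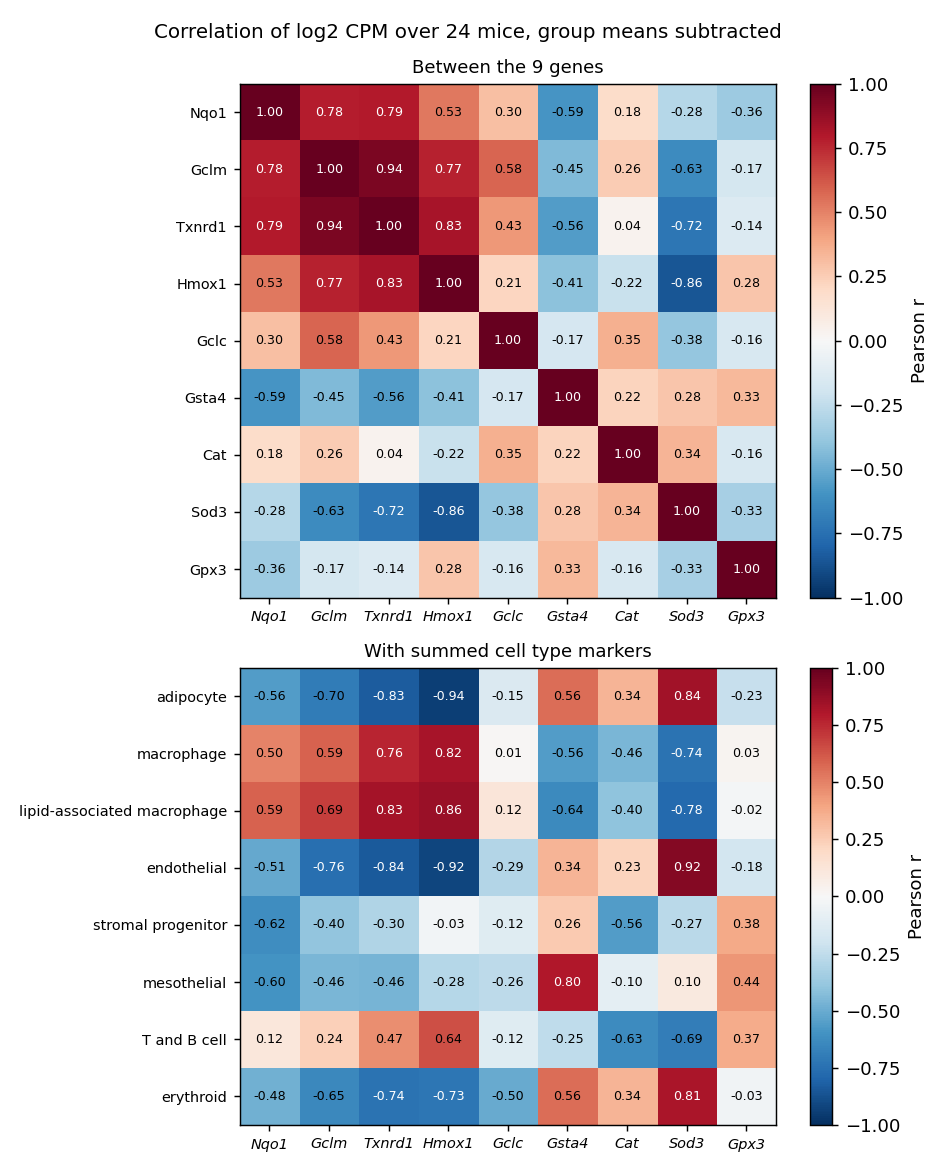
Pearson correlation of log2 CPM over 24 mice after subtraction of group means, between the 9 genes (top) and between each gene and the summed CPM of each list of cell type markers (bottom), on a scale from -1 (blue) to 1 (red). Nqo1, Gclm, Txnrd1 and Hmox1 form a block of 0.53 to 0.94, and Sod3 stands against all 4 of them at -0.28 to -0.86. Within the block, the share of all genes with a lower correlation runs from 91.71% (Hmox1 with Gclm) to 99.99% (Gclm with Txnrd1).

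Beyond the 9 genes, the genes whose pattern over the 24 mice was most like each member were listed by the same measure. Hmox1 was closest to Ywhah (r = 0.97), Cap1 (0.97) and Gdf15 (0.97), the last a stress-induced secreted factor. Sod3 was closest to Agpat2 (0.96), an enzyme of triglyceride synthesis, Rab34 (0.95) and Prnp (0.94). Gsta4 was closest to Phyh (0.90), a peroxisomal enzyme, Rbpms2 (0.90) and Lonp2 (0.89), a peroxisomal protease. Genes close to Nqo1 included Ptgir (0.89), the prostacyclin receptor, and Arrdc4 (0.88). After each other, Gclm was closest to Ceacam10 (0.89) and Ninj1 (0.89) and Txnrd1 to Eef1a2 (0.93) and Anxa4 (0.93). Gpx3 was closest to Foxo4 (0.89), Adamts10 (0.89) and Pkd1 (0.86). For the members with the least shared variation, Gclc and Cat, the nearest genes were Sgms1 (0.81), Ecpas (0.80) and Prcc (0.74), and Nploc4 (0.80), Epb41l1 (0.77) and Gbe1 (0.76).

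Markers of the depot's cell types moved with some of these genes. The summed level of 10 adipocyte markers was 26054 to 81060 CPM in chow-fed fl/fl (median 41692), 18917 to 65078 in chow-fed AKO (median 41069), 10793 to 72762 in HFD-fed fl/fl (median 24268) and 10491 to 31326 in HFD-fed AKO mice (median 12932). The 11 macrophage markers had medians of 9264, 5133, 8692 and 12048 CPM in the same order, and the 7 markers of lipid-associated macrophages (Trem2, Gpnmb and others) 3741, 1768, 5244 and 9244 CPM. In bulk tissue, fewer cells of a type and less RNA per cell cannot be told apart. After subtraction of group means, Hmox1 correlated negatively with the adipocyte sum (r = -0.94) and positively with the macrophage (0.82) and lipid-associated macrophage sums (0.86). Txnrd1 showed the same directions (-0.83, 0.76 and 0.83), as did Gclm (-0.70, 0.59 and 0.69) and Nqo1 (-0.56, 0.50 and 0.59). With the endothelial sum, Hmox1 was at -0.92, Txnrd1 at -0.84, Gclm at -0.76 and Nqo1 at -0.51. Over the 24 mice, Gclc (-0.15 with the adipocyte and 0.01 with the macrophage sum) and Gpx3 (-0.23 and 0.03) were weakly related to these sums. Cat was at 0.34 and -0.46, the latter near the size for Nqo1. Over the 19 mice Gclc was at -0.52 and 0.24, Gpx3 at 0.45 and -0.64 and Cat at 0.16 and -0.34. In that set Hmox1 (-0.86 and 0.65), Txnrd1 (-0.81 and 0.66), Gclm (-0.68 and 0.48) and Nqo1 (-0.65 and 0.48) kept their directions. Over the 24 mice, Sod3 correlated positively with the adipocyte (0.84) and the endothelial sum (0.92), and Gsta4 with the mesothelial sum (0.80). The erythroid sum gave -0.73 for Hmox1 and 0.81 for Sod3, and the T and B cell sum gave 0.64 and -0.69. The share of all genes that followed a marker sum as closely was not computed. These values thus do not show a relation particular to 1 cell type. Endothelial markers (7, Pecam1 and others) had medians of 423, 572, 375 and 311 CPM, and mesothelial markers (6, Msln and others) 51.6, 60.5, 60.0 and 40.1 CPM. Stromal progenitor markers (7) had medians of 3634, 2794, 3149 and 3319 CPM, T and B cell markers (7) 14.6, 10.4, 29.3 and 24.3 CPM, and erythroid markers (5) 3012, 3370, 2939 and 2098 CPM. No library was at 0 for Adipoq, Plin1, Adgre1, Pecam1 or Pdgfra. The part of these cell type markers in the diet and genotype values of the members was not tested.

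**Figure D4:**
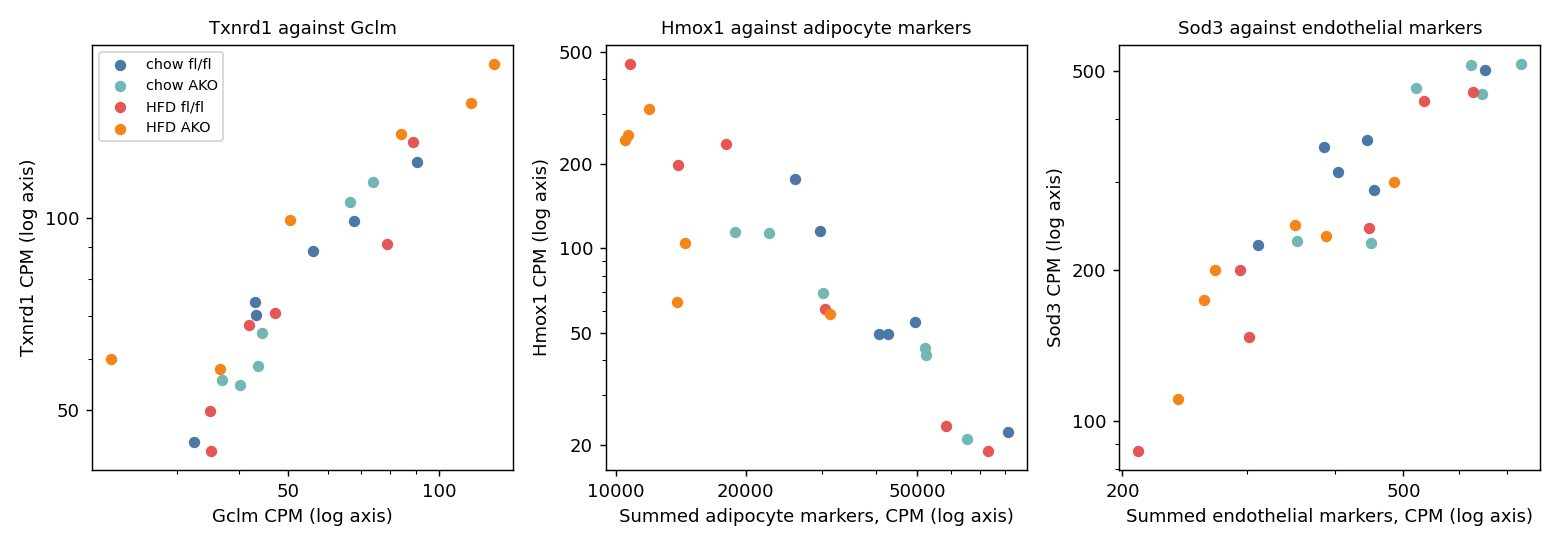
Relations between genes and markers, 1 point per mouse, colored by group, on log axes in CPM: Txnrd1 against Gclm, Hmox1 against the summed adipocyte markers, and Sod3 against the summed endothelial markers. Txnrd1 is higher where Gclm is higher in every group, the mouse at 452 CPM of Hmox1 lies at the low end of the adipocyte sum and the mouse at 19.04 CPM near its high end, and Sod3 is higher where the endothelial sum is higher.

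The wider antioxidant pathway was read from 93 genes in 9 lists, which include the 9 members, and 92 of them were tested. Over 24 mice the call rule took 0 of 92 for HFD in fl/fl, beside 0.173% of all genes. There 7 (7.61%) had an unadjusted p under 0.05, beside 9.01% of all genes. It took 1 (1.09%) for HFD in AKO, a share below the 4.12% of all genes. There 45 (48.9%) had an unadjusted p under 0.05, beside 39.8% of all genes. For genotype on HFD it took 0 beside 0.173%, with 15 (16.3%) under 0.05 beside 14.8%. On chow it took 0 beside 0.113%, with 4 (4.35%) under 0.05 beside 5.85%. It took 1 (1.09%) for the interaction and 1 (1.09%) for diet averaged over genotypes, beside 0.386% and 2.25%. Both limma-voom and DESeq2 called 0 in each of the 3 comparisons where edgeR called 0. For the interaction and for diet averaged over genotypes, limma-voom and the fit with a replicate block also called 0. DESeq2 called 1 (1.09%) and 2 (2.17%), beside 0.985% and 4.21% of all genes. The gene called for HFD in AKO mice was Slc40a1, which encodes ferroportin, the iron exporter used by macrophages. It held 4.48 to 13.0 CPM (median 6.49) in chow-fed and 12.9 to 68.7 CPM (median 32.8) in HFD-fed AKO mice, against 9.503 to 18.7 (median 13.3) and 3.49 to 34.8 CPM (median 13.8) in fl/fl mice. The AKO groups overlapped only at their edge, between 12.9 and 13.0 CPM. Its change was 2.23 ± 0.47 on the log2 scale in AKO mice (adjusted p = 0.0124) and 1.32 ± 0.32 averaged over genotypes (adjusted p = 0.0233, edgeR), where it was the 1 gene called too. The averaged call was lost with limma-voom, with the replicate block and in the fits without HFD-fed fl/fl mouse 1 or 2 or HFD-fed AKO mouse 4, each of which called 0 pathway genes.

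Tkt, the transketolase of the pentose phosphate pathway that feeds NADPH supply, was called for the interaction. It held 123 to 221 CPM (median 174) in chow-fed fl/fl, 180 to 304 CPM (median 246) in chow-fed AKO, 166 to 341 CPM (median 255) in HFD-fed fl/fl and 133 to 232 CPM (median 167) in HFD-fed AKO mice. The order of the genotypes on chow was turned on HFD, and the interaction was -1.04 ± 0.28 (adjusted p = 0.220, edgeR), which fails the adjustment. In 17 of the 24 fits without 1 mouse no pathway gene was called for the interaction, and without HFD-fed fl/fl mouse 2 the gene called was Cbr3 instead. In the comparisons with 0 genes called, the lowest p belonged to Xdh (1.05), Mgst2 (-0.61) and Tkt (0.55) for HFD in fl/fl, each with an adjusted p of 0.448. They belonged to Cbr3 (1.15), Me1 (-0.79) and Nqo1 (1.01) for genotype on HFD, each at 0.291, and to Osgin1 (0.60), Tkt (0.50) and Gstt1 (-0.45) on chow, at 0.794, 0.794 and 0.831. All these values are log2 fold changes.

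A further rule took fold 1.5, adjusted p of 0.05 and at least 2 CPM in the higher group. By it, 17 of the 92 (18.5%) passed for HFD in AKO mice over 24 mice, 9 higher and 8 lower. Beside 16.1% of all genes, the share was near the background for this rule and set of mice. Of the 8 heme and iron genes, 3 were higher and 0 lower, with a list median of 0.86 on the log2 scale. They were Slc40a1, the ferritin light chain Ftl1 (1.299 ± 0.38) and, named after its value was seen, the heavy chain Fth1 (0.96 ± 0.34), which store iron. Of 17 glutathione S-transferases 0 were higher and 2 lower (list median -0.42), Gstm5 (-1.13 ± 0.32) and Gstz1 (-1.32 ± 0.40). Gstp2 (1.49 ± 0.40, adjusted p = 0.0219, edgeR, named after its value was seen) met the fold and p limits as higher but had a mean under 2 CPM in both groups and is not in these counts. Of 11 quinone, aldehyde and xenobiotic genes tested, 2 were higher and 1 lower (median 0.54). Of 14 genes of the thioredoxin system 2 were higher and 1 lower (median 0.15), with Srxn1, the sulfiredoxin that repairs peroxiredoxins, at 1.86 ± 0.62 and the peroxiredoxin Prdx6 at -0.69 ± 0.24. Of 10 NRF2 regulators 1 was higher and 2 lower (median 0.08). The higher one was Sqstm1 (0.73 ± 0.22), and the lower ones were Keap1 (-0.64 ± 0.22) and Nfe2l1, a relative of NRF2 (-0.94 ± 0.26). Sqstm1 and Keap1 were named after their values were seen. Of 8 oxidant sources, NADPH oxidase subunits and others, 1 was higher and 0 lower (median 0.91), and of 6 NADPH supply genes 0 and 1 (median -0.21), the 1 being Idh1 at -0.81 ± 0.23. Of 9 superoxide and peroxide enzymes 0 were higher and 1, Sod3, lower (median -0.05), and of 9 genes of glutathione synthesis and recycling 0 and 0 passed (median -0.02), with 1 and 1 at an unadjusted p under 0.05. The oxidant source and heme lists hold genes that macrophages express strongly. With all 6 mice per group, the medians of both macrophage sums given above were highest in HFD-fed AKO mice (12048 and 9244 CPM). HFD-fed fl/fl mice 3, 4 and 6, outside the 19-mouse set, held 7836, 2814 and 3685 CPM of macrophage markers. Mice 1, 2 and 5, which that set keeps, held 14441, 14743 and 9548 CPM. Their lipid-associated macrophage sums were 10249, 10021 and 6575 CPM. By microscopy, the paper reports less inflammatory infiltrate in eWAT of AKO mice on both diets. From the RNA, after removal of outliers, its gene set enrichment gave several immune pathways as lower in AKO than fl/fl mice on HFD. On chow it gave a subset of immune pathways as higher in AKO mice. The part of macrophages in these counts was not tested.

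**Figure D5:**
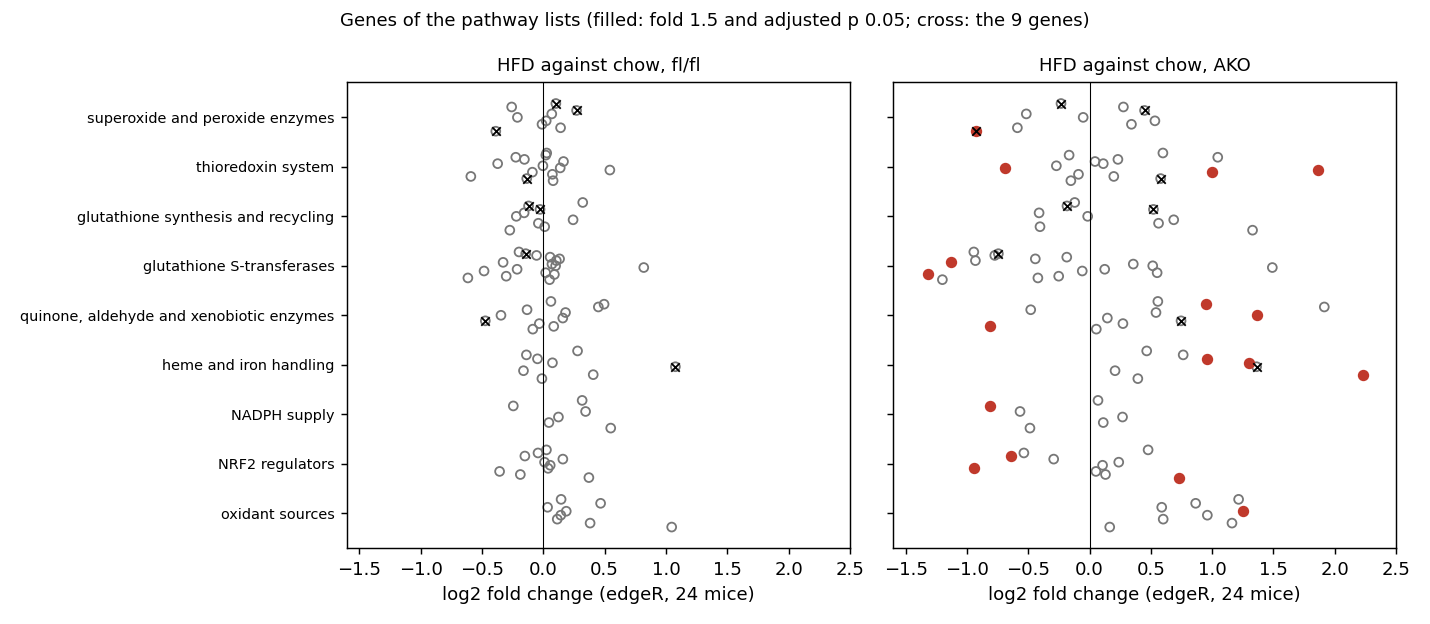
Log2 fold change (edgeR, 24 mice) of each gene of the 9 pathway lists for HFD against chow, in fl/fl mice (left) and in AKO mice (right), with filled red points for genes past fold 1.5 and an adjusted p of 0.05 with at least 2 CPM in the higher group and crosses on the 9 members. No point is filled in fl/fl mice and 17 are in AKO mice, Sod3 among them.

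Over the 19 mice, 7 of 92 were called for HFD in fl/fl mice (7.61%, beside 11.8% of all genes) and 15 for HFD in AKO mice (16.3%, beside 15.7%). Without 1 further mouse the first count ran from 1 (without HFD-fed fl/fl mouse 1; 3 without chow-fed fl/fl mouse 4, 5 or 6) to 9, and the second from 8 (without chow-fed AKO mouse 3; 9 without HFD-fed AKO mouse 4) to 25 (without chow-fed AKO mouse 6). The share of all genes called in those fits was not computed. In fl/fl mice the 7 genes called over the 19 mice were Hmox1, Xdh (1.71), Abcc4 (1.10) and Tkt (0.87), higher, and Txnip (-1.50), Gstm5 (-1.20) and Idh1 (-0.92), lower, on the log2 scale. In AKO mice those with the lowest p were Slc40a1 (2.41), Abcc4 (1.14), Ftl1 (1.70), Srxn1 (2.30) and Akr1b8 (2.53), higher, and Nfe2l1 (-1.02), Gstm5 (-1.24), Idh1 (-0.88), Gstz1 (-1.50) and Prdx6 (-0.79), lower. Abcc4, an exporter of organic anions, Gstm5 and Idh1 were called in the same direction in both genotypes of this set. By fold 1.5, an adjusted p of 0.05 and the same CPM limit, 19 of 92 (20.7%) passed for HFD in fl/fl mice, beside 22.9% of all genes. For HFD in AKO mice 35 (38%) passed, beside 27.7% of all genes.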

How the data were processed

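Total RNA from eWAT of 24 mice was sequenced as 3′ tags, and the authors deposited raw read counts per gene and library from a QuantSeq pipeline, without normalization. A further deposited table holds a normalized signal, the counts of each library divided by 1 size factor, and served only for symbols and positions (GRCm38). The submitters' processing notes name R 4.0.3 and DESeq2 1.30. Aligner settings are not given in the sources used here.

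Tests used edgeR 4.0.16 in R 4.3.3. A gene entered the model if 3 or more mice had 1 CPM or more (15020 of 16730 genes). TMM factors were applied, and 1 quasi-likelihood model with a coefficient for each group covered all 24 mice. The study's criteria for a call were kept: fold change of 1.5, nominal p of 0.001 and, in the higher group, a mean of 2 CPM. Adjustment was by Benjamini-Hochberg over all genes tested. Alternatives were limma 3.58.1 (voom, with and without sample quality weights), DESeq2 1.42.0, RLE size factors, no filter, only the compared groups, a replicate block, an adjusted p, the 19-mouse set and fits without 1 mouse. Fits without both libraries with epididymis transcripts, and without single mice of the 19, were added after seeing the data. Library totals of 5579590 to 18764516 counts limit the precision of low genes, and each p-value measures the spread between mice. On simulated counts of 14798 genes for HFD in AKO mice, 192 of 200 genes changed by 2 on the log2 scale were called. In the unchanged fl/fl contrast 16 were called. The calling of smaller changes was not tested. Over the 24 mice, fitted changes of the members for HFD in AKO mice ran from -0.92 to 1.36 on the log2 scale. No libraries of a group were alike within sampling noise (60 pairs, lowest chi-square per degree of freedom 5.22).

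The genes named are the 9 members, the pathway genes called in a comparison (with more than 10 called, the 5 lowest p in each direction), the 3 with the lowest p where none was called, the 3 genes most correlated with each member, and Lama4 and cell markers beside a result. Of the genes most correlated with Nqo1, 1 is not reported here. The rule was applied to the 24 and to the 19 mice. Members, pathway lists and marker lists were chosen with earlier results of these data known. Correlations used log2 CPM with a prior count of 2. Promoters came from RefSeq, GRCm38.p6.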

Additional observations from a re-analysis of the deposited data

Results flagged for a closer look

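Cat in chow-fed fl/fl mouse 1 was 558 CPM, apart from the other 5 mice of its group, which reached down to 333 CPM. On the log2 CPM scale its gap to the next mouse was 0.806 of the group's range, above Dixon's critical value for 6 samples. Of 36 groups of a member gene examined this way, 1 stood out, and chance alone sets apart about 1 in 20.

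The Nqo1 effect of HFD differed between genotypes by 1.22 on the log2 scale in the interaction term (edgeR, unadjusted p under 0.05), with 0.75 ± 0.35 in AKO and -0.47 ± 0.35 in fl/fl mice, but the adjusted p was 0.272 and the term fell to 0.85 without HFD-fed AKO mouse 4.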

How the results depend on the processing

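Over 24 mice 0 members were called in each comparison under every alternative except 2: with sample quality weights or an adjusted p of 0.05, 1 member (Sod3) was called for HFD in AKO mice, beside 23.9% and 16.1% of all genes. The 19-mouse set moved most. By edgeR it called 1 member for HFD in fl/fl and 2 for diet averaged over genotypes, and by limma-voom 0 and 2. Of 522 fitted values of single members under the other settings, 485 kept direction and call, 6 gained a call and 31 changed sign, each of these without a call in either fit. Fits without 1 mouse changed the sign of 46 of 1296 values.

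On the log2 scale, the values that changed sign over the 19 mice were, for HFD in fl/fl, Gclm at 0.40, Txnrd1 at 0.28 and Cat at -0.0054 (limma-voom 0.41, 0.30 and -0.041). For genotype on HFD they were Hmox1 at -0.77 and Sod3 at 0.54 (limma-voom -0.97 and 0.56, with Gclm at -0.12). For the interaction they were Hmox1 at -0.76, Gclc at 0.13, Gpx3 at -0.21 and Sod3 at 0.19 (limma-voom -0.93, 0.12, -0.24 and 0.22, with Gclm at -0.017). The Gclm value for HFD in fl/fl became 0.00070 with DESeq2, 0.00067 with RLE factors, 0.0073 with no filter, 0.020 with only the compared groups and 1.58e-05 without both libraries with epididymis transcripts. Gclc on chow between genotypes became 0.013 with limma-voom. With quality weights, Gsta4 became 0.19 for HFD in fl/fl and 0.014 for genotype on chow, and Gpx3 0.14 for genotype on HFD. The cause of these changes was not tested.

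The labels do not say whether same-numbered mice were paired, and the paper used littermates. Per comparison, 2 or 3 of 6 same-numbered pairs correlated above 0.1, with values from -0.48 to 0.71. Such correlations cannot show whether mice were paired. The replicate block gave 0.037 for Gsta4 with HFD in fl/fl and 0.015 for Gclc between genotypes on chow, and 0 pathway genes for the interaction and for diet averaged over genotypes. It called 0 members.

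Pathway genes called by HFD in fl/fl, HFD in AKO, genotype on HFD, interaction and diet averaged numbered 7, 15, 2, 2 and 21 over the 19 mice, and 6, 13, 1, 2 and 23 there with limma-voom. The first were 7.61%, 16.3%, 2.17%, 2.17% and 22.8% of the 92, beside 11.8%, 15.7%, 0.565%, 0.68% and 21.4% of all genes. Those of limma-voom were 6.52%, 14.1%, 1.09%, 2.17% and 25%, beside 12.4%, 15.9%, 0.592%, 0.639% and 21.7%. With limma-voom over 24 mice the interaction and averaged counts were 0 and 0. DESeq2 gave 8 for HFD in AKO and 2 averaged (8.7% and 2.17%, beside 8.75% and 4.21% of all genes). The compared groups alone gave 5 for HFD in AKO. Quality weights gave 30, 4, 13 and 3 for HFD in AKO, genotype on HFD, interaction and averaged, or 32.6%, 4.35%, 14.1% and 3.26% of the 92, beside 23.9%, 3.5%, 9.04% and 6.11% of all genes. An adjusted p gave 17 (18.5%), 0 and 3 (3.26%) for HFD in AKO, interaction and averaged, beside 16.1%, 0.00666% and 6.03% of all genes. No fold criterion gave 2 averaged, and no filter 0 for the interaction. Leaving out both libraries with epididymis transcripts gave 6, 0 and 2 for HFD in AKO, interaction and averaged. For these settings and for the compared groups alone, the share of all genes called was not computed, so their counts lack a background.

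Without 1 mouse of the 24, pathway counts ran 0 to 1 (HFD in fl/fl), 1 to 7 (HFD in AKO, the 7 without chow-fed AKO mouse 5), 0 to 2 (genotype on HFD), 0 to 1 (interaction) and 0 to 4 (averaged). Members that changed sign ran, for HFD in fl/fl, -0.22 to 0.17 (Gclm), -0.36 to 0.15 (Gsta4) and -0.37 to 0.0069 (Txnrd1). For genotype on HFD they ran -0.22 to 0.69 (Hmox1), -0.20 to 0.031 (Gclc) and -0.24 to 0.068 (Gpx3). On chow they ran -0.43 to 0.20 (Hmox1), -0.13 to 0.10 (Gclc), -0.26 to 0.069 (Gclm), -0.74 to 0.042 (Gsta4), -0.28 to 0.0061 (Txnrd1) and -0.011 to 0.19 (Cat). In the interaction they ran -0.13 to 0.90 (Hmox1), -0.19 to 0.053 (Gclc) and -0.063 to 0.36 (Gpx3), and averaged over genotypes -0.023 to 0.24 (Nqo1) and -0.13 to 0.0027 (Cat). Without 1 mouse of the 19, members called ran 0 to 2 for HFD in fl/fl and 0 to 1 for HFD in AKO and 2 to 3 averaged, and pathway genes 1 to 9 (HFD in fl/fl) and 8 to 25 (HFD in AKO). For the fits without 1 mouse the share of all genes called was not computed, so their counts lack a background. RLE factors shifted the median of all genes by at most 0.03 on the log2 scale. Depth limits Nqo1 and Gsta4, the members with the fewest counts.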
